A study of Mus musculus with 4 samples.

Results

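The slow and cardiac sarcomere isoforms are contractile and Z-disc proteins typical of slow-twitch skeletal fibres, of heart muscle, or of both. They were taken as the 10 genes Myh7, Tnni1, Tnnt1, Tnnc1, Myl2, Myl3, Tpm3, Myoz2, Actc1 and Csrp3, and as every probe set that the platform annotation gives to one of them alone. All 10 genes were on the array, with 16 of its 22690 probe sets. Gastrocnemius, the large calf muscle, was taken from MCK-PPARa mice, which overexpress the nuclear receptor PPARalpha in muscle (MCK names the muscle creatine kinase promoter), and from their non-transgenic littermates (NTG), which are wild type. Each group had 2 arrays, replicates 1 and 2, and the series speaks of 2 mice of each genotype without tying an array to an animal. The sources used here give no strain, sex, age or founder line. A p-value here therefore reflects the spread between 4 samples, which may be partly technical.

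A sarcomere is built from thick filaments of myosin, thin filaments of actin with tropomyosin and troponin, and the Z-disc that anchors them. Most of these proteins come from gene families with a fast and a slow member, and the slow member of a pair is often also the one used by the heart ventricle. In mouse gastrocnemius most fibres are fast, and slow fibres lie mainly in its deep part. In a homogenate of the whole muscle, fewer slow fibres and less slow RNA per fibre cannot be told apart.

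Values are MAS5 signals in arbitrary units as the authors deposited them, and a difference is the mean log2(signal + 64.2) of MCK-PPARa less that of NTG, with limma's standard error (SE, n = 2 per group). Median signals were between 582 and 700.3 over the 4 arrays. The targeted gene, Ppara, read 7969 and 15226 in MCK-PPARa muscle and 633 and 2674 in NTG muscle, so both transgenic arrays lay above both controls. Of 13576 probe sets bright enough to be tested, 5 rose and 2 fell at an adjusted p under 0.05 (0.0368% and 0.0147%), and after median centring 1 rose and 0 fell. At an unadjusted p under 0.05 there were 404 higher and 364 lower, and 322 higher and 502 lower after median centring. The median difference over all tested probe sets was 0.034.

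The slow troponins, the slow myosin heavy chain, cardiac actin and a part of the Tpm3 probe sets read lower in MCK-PPARa muscle, while the slow myosin light chains, Myoz2 and Csrp3 differed less. Of the 15 member probe sets tested, 14 lay below 0, and the median difference was -0.89. None passed limma's test with Benjamini-Hochberg adjustment over all 13576 probe sets (adjusted p from 0.15 to 0.999), so no member is called changed. At an unadjusted p under 0.05, 7 of the 15 were lower, from 6 of the 10 genes, against 2.68% of all tested probe sets, and 0 were higher, against 2.98%. Both MCK-PPARa arrays read below both NTG arrays for 9 of the 15, against 14.8% of all, and 0 of the 15 showed the opposite, against 19.0%. Probe sets of 1 gene share its transcripts, so these counts do not stand for as many independent genes. In fits that left out 1 array, with the lone array of a group taken to vary as the others do, some members passed: 5 without MCK-PPARa replicate 1, 4 without MCK-PPARa replicate 2, 2 without NTG replicate 1 and 5 without NTG replicate 2. Those fits also called between 66 and 237 probe sets over the whole array. The member median was -0.45 without NTG replicate 1 and -1.38 without NTG replicate 2.

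**Figure D1:**
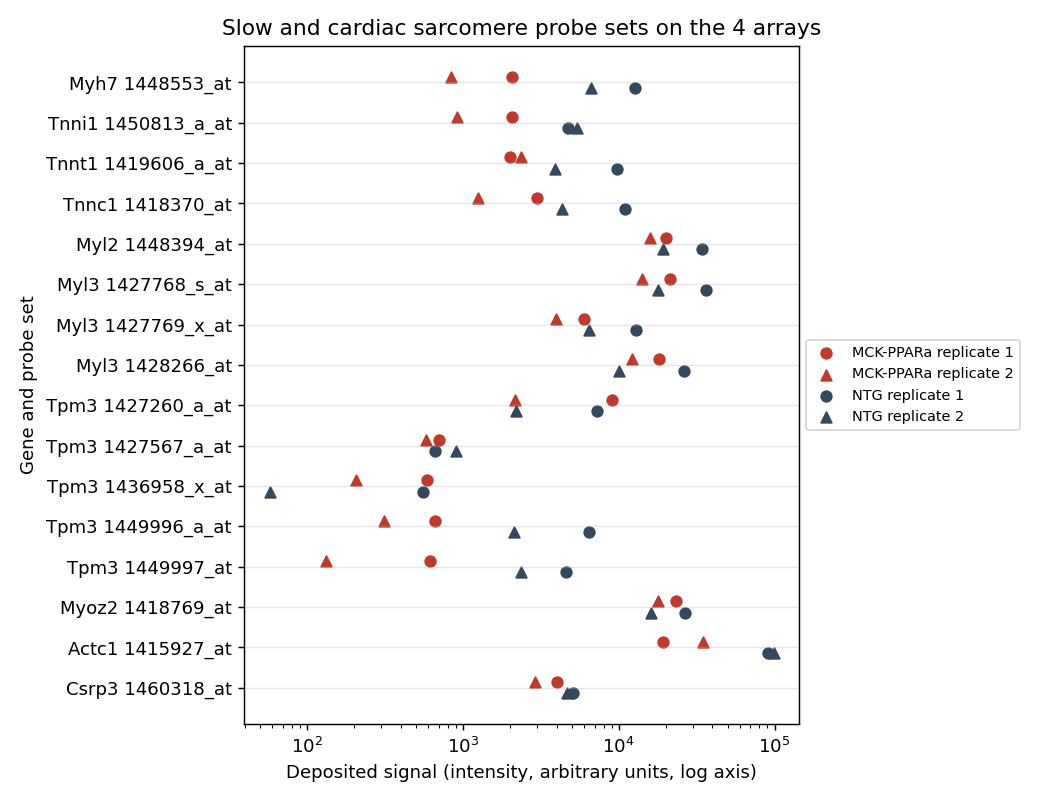
Deposited signal (arbitrary units, log axis) of the 16 member probe sets on each of the 4 arrays, with MCK-PPARa in red and NTG in dark blue, circles for replicate 1 and triangles for replicate 2. Myh7, the 3 troponins, Actc1 and 2 of the 5 Tpm3 probe sets have both red symbols well left of both blue ones, and Myoz2 and Myl2 have them mixed.

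Myh7 encodes the slow, or beta, myosin heavy chain, the motor of type I fibres and of the ventricle of large mammals. Its probe set 1448553_at read 2068 and 836 in MCK-PPARa muscle, against 12696 and 6606 in NTG muscle. The higher of the transgenic arrays lay well below the lower of the controls. The difference was -2.74 ± 0.49 (SE), or 6.66-fold higher in NTG, with a 95% interval from -3.86 to -1.61 that is not adjusted for the number of tests (limma adjusted p = 0.15). Leaving out MCK-PPARa replicate 1 gave -3.36, and leaving out replicate 2 of that group gave -2.11. Another probe set, 1448554_s_at, is annotated to both Myh7 and the atrial and alpha heavy chain Myh6 and so cannot be given to either. It read 836 and 624 in MCK-PPARa muscle and 4252 and 2066 in NTG muscle, a difference of -1.95 ± 0.41 (SE). The probe set 1448827_s_at, annotated to the same 2 genes, had too low a mean signal to be tested. It read 188 and 454 in MCK-PPARa muscle and 236 and 417 in NTG muscle, and the groups overlapped. Its difference was -0.072 ± 0.61 in a fit without the filter. The Myh6 probe sets themselves were dim, between 14.8 and 242 on the 4 arrays.

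The troponin complex has an inhibitory subunit, a tropomyosin-binding subunit and a calcium-binding subunit, and the slow form of each is among the members. Tnni1, the slow inhibitory subunit, read 2075 and 918 in MCK-PPARa muscle and 4743 and 5392 in NTG muscle. Tnnc1, the calcium-binding subunit of slow and cardiac muscle, read 3005 and 1256 in MCK-PPARa muscle and 11041 and 4318 in NTG muscle. Tnnt1, the slow tropomyosin-binding subunit, read 2022 and 2354 in MCK-PPARa muscle and 9764 and 3917 in NTG muscle. The groups did not overlap for any of the 3, and for Tnnc1 and Tnnt1 the NTG arrays themselves were far apart. The differences were -1.82 ± 0.41 for Tnni1 (limma adjusted p = 0.26), -1.79 ± 0.54 for Tnnc1 (adjusted p = 0.52) and -1.48 ± 0.44 for Tnnt1 (adjusted p = 0.52). For Tnnt1, replicate 1 of MCK-PPARa differed from replicate 1 of NTG by -2.24 and replicate 2 from replicate 2 by -0.72. For Tnni1 the same differences were -1.17 and -2.47. Without NTG replicate 1 the difference was -1.12 for Tnnc1 and -0.83 for Tnnt1, and without NTG replicate 2 it was -2.46 for Tnnc1 and -2.13 for Tnnt1.

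Tpm3 encodes the slow skeletal tropomyosin, which lies along the actin filament, and, from another start site and other exons, tropomyosins of the cytoskeleton in most cells. Its 5 probe sets did not read alike. The probe set 1449996_a_at read 659 and 311 in MCK-PPARa muscle against 6480 and 2123 in NTG muscle, a difference of -2.86 ± 0.55 (limma adjusted p = 0.18). The probe set 1449997_at, annotated to the same target transcript, read 614 and 133 in MCK-PPARa muscle against 4583 and 2372 in NTG muscle, a difference of -3.20 ± 0.59 (adjusted p = 0.17). These were the lowest differences of any member. Leaving out 1 array at a time, 1449996_a_at ran from -3.65 (without NTG replicate 2) to -2.07 (without NTG replicate 1), and 1449997_at from -4.09 (without MCK-PPARa replicate 1) to -2.31 (without MCK-PPARa replicate 2). The probe set 1427260_a_at, with the brightest mean, read 8995 and 2147 in MCK-PPARa muscle against 7263 and 2210 in NTG muscle. It separated the arrays by replicate number and not by genotype, and its difference was 0.13 ± 0.72 with an interval from -1.52 to 1.78. The probe set 1427567_a_at read 708 and 580 in MCK-PPARa muscle against 666 and 899 in NTG muscle, a difference of -0.25 ± 0.40. The fifth, 1436958_x_at, had too low a mean signal to be tested. It read 588 and 207 in MCK-PPARa muscle and 555 and 57.6 in NTG muscle, and differed by 0.61 ± 0.83 in a fit without the filter. Which Tpm3 transcripts each probe set reads cannot be read from the annotation, and in Affymetrix naming the ending _a_at marks a probe set that several transcripts of 1 gene share.

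**Figure D2:**
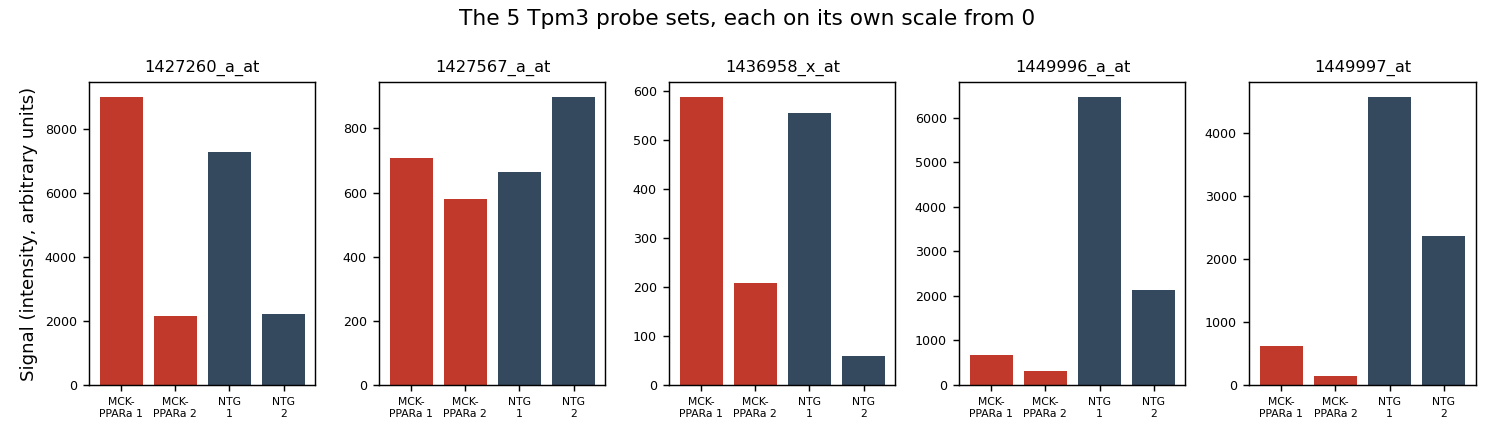
Signal (arbitrary units, each panel on its own scale from 0) of the 5 Tpm3 probe sets, with 1 bar per array, MCK-PPARa in red and NTG in dark blue. In 1449996_a_at and 1449997_at both red bars are below both blue bars, and in 1427260_a_at the replicate 1 bars of both groups are the tall ones.

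The 250 bases before annotated starts are shown for the 4 member genes with the smallest p-values, and for Myoz2 as a member whose groups overlapped, all from RefSeq in GRCm38.p6. They are the outermost of the Myh7 starts, both Tpm3 starts, Actc1, the outermost of the Tnni1 starts, and Myoz2. Sequences run 5′ to 3′ on the gene's strand, and capitals mark matches on either strand to the MEF2 motif, to the CArG box or to 1 of 3 shorter motifs. These are the M-CAT motif, with the letters CATTCC, the TATA motif, with the letters TATAAA, and the nuclear receptor half-site, with the letters AGGTCA.
Myh7 chr14:54994627-54994876 (minus strand): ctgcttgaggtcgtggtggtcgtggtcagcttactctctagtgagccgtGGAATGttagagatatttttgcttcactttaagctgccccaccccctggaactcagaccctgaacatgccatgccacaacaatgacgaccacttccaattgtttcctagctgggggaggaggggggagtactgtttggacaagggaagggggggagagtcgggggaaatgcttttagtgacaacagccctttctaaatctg
Tpm3 chr3:90072401-90072650 (plus strand): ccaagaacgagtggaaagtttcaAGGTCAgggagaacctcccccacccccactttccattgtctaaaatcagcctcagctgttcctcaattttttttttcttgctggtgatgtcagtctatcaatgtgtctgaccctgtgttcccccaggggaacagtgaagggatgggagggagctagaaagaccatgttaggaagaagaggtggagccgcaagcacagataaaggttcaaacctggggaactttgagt
Tpm3 chr3:90079271-90079520 (plus strand): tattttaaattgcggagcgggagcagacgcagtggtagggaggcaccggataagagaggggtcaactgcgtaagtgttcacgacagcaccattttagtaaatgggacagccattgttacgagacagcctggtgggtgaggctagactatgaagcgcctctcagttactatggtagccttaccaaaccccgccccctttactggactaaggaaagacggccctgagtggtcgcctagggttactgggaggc
Actc1 chr2:114052876-114053125 (minus strand): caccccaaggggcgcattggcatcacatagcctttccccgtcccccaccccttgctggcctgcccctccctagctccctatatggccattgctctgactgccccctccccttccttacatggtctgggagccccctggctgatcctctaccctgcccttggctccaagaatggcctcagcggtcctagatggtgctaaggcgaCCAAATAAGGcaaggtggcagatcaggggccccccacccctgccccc
Tnni1 chr1:135799171-135799420 (plus strand): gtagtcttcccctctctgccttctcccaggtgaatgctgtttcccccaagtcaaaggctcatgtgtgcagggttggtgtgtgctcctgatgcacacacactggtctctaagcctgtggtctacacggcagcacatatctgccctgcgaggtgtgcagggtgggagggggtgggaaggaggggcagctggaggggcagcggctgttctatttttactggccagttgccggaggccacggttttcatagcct
Myoz2 chr3:123034988-123035237 (minus strand): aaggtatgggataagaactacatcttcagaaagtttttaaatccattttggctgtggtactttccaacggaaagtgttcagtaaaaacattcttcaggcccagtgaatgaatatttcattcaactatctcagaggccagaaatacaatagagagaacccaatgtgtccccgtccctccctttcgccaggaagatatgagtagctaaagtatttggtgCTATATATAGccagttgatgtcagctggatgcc
Over all 15 windows that RefSeq gives for the 10 genes, M-CAT letters stood in 3 (Myh7, Tnnc1 and Myl3), against 12.6% of all 32851 windows. M-CAT letters are bound by TEAD factors in muscle genes. A half-site stood in 2 windows, of Tpm3 and Myl2, against 14.0% of all, and TATA in 2, of Tnnt1 and Myl2, against 12.4%. The MEF2 motif stood in 1 window, that of Myoz2, against 1.69% of all, and the CArG box in 2, of Actc1 and Myl3, against 1.47%. E-box letters (CANNTG), not in capitals above, stood in 14 of the 15 windows and in 66.2% of all. No 2 of the capitalised motifs overlapped in the windows printed. A match of letters is not a bound site.

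Actc1 encodes cardiac alpha-actin, which the heart uses and which developing skeletal muscle makes before skeletal alpha-actin replaces it. It read 19301 and 35014 in MCK-PPARa muscle, against 91205 and 98852 in NTG muscle. The NTG arrays were close together, and each transgenic array lay far below them. The difference was -1.87 ± 0.37 (SE), or 3.65-fold higher in NTG (limma adjusted p = 0.21). It was the only 1 of the 15 tested member probe sets with a lower signal on replicate 1 than on replicate 2 in both groups.

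The myosin light chains of slow fibres and ventricle, Myl2 (regulatory) and Myl3 (essential), differed less than the heavy chain. Myl2 read 20099 and 15873 in MCK-PPARa muscle and 34367 and 19153 in NTG muscle, and the groups overlapped (-0.52 ± 0.38, 95% interval from -1.38 to 0.34). Of the 3 Myl3 probe sets, 1427768_s_at read 21428 and 14119 in MCK-PPARa muscle and 36161 and 17997 in NTG muscle (-0.55 ± 0.42). The dimmer 1427769_x_at gave -0.89 ± 0.41 with groups that did not overlap, and 1428266_at gave -0.13 ± 0.48 with groups that did. The 3 Myl3 probe sets thus ran from -0.13 to -0.89, all within their own intervals of one another, and a difference of the size seen for Myh7 lies outside the interval of each.

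Of the Z-disc members, Myoz2 was close between the groups, and Csrp3 read somewhat lower in MCK-PPARa muscle. Myoz2, or calsarcin-1, ties calcineurin to the Z-disc in slow and cardiac muscle. It read 23363 and 17928 in MCK-PPARa muscle and 26556 and 16234 in NTG muscle, so the NTG arrays enclosed both transgenic ones. Its difference was -0.021 ± 0.36, with an interval from -0.85 to 0.81. Csrp3, the muscle LIM protein, read 4045 and 2896 in MCK-PPARa muscle and 5129 and 4642 in NTG muscle, a difference of -0.50 ± 0.32 with groups that did not overlap (limma adjusted p = 0.98).

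**Figure D3:**
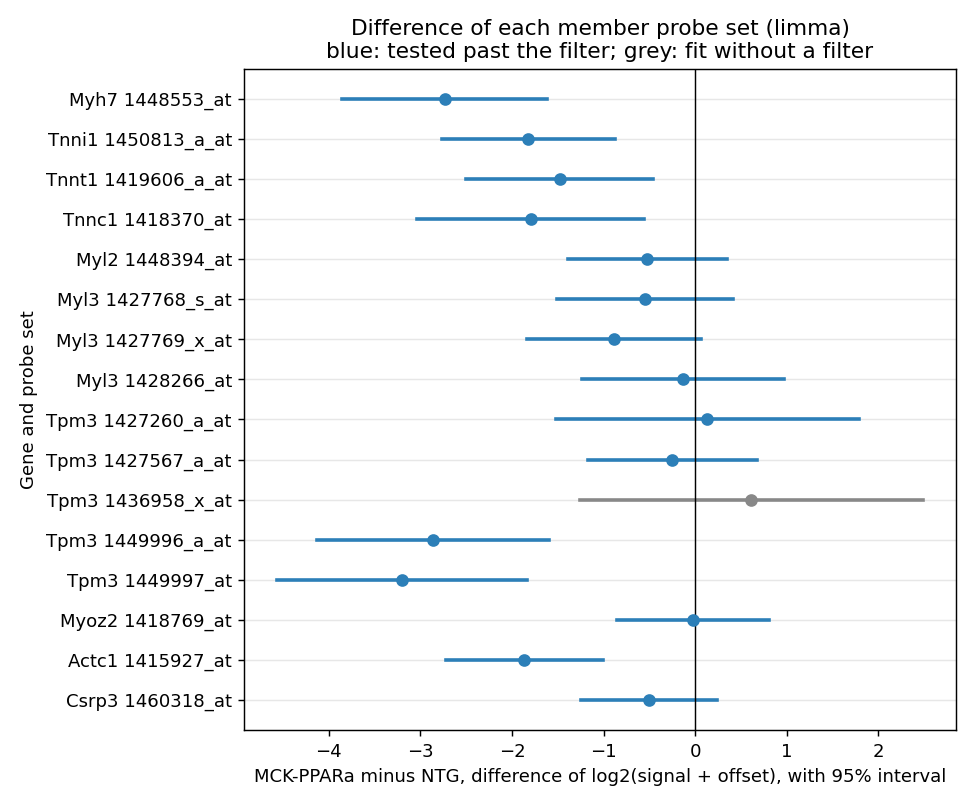
Difference between MCK-PPARa and NTG in log2(signal + offset) for each of the 16 member probe sets, with 95% intervals from limma that are not adjusted for the number of tests, blue where tested and grey for the Tpm3 probe set read from the fit without a filter. The intervals of 7 probe sets, from Myh7, the 3 troponins, Tpm3 and Actc1, lie below 0, and those of Myl2, Myl3, Myoz2 and Csrp3 include 0.

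The members also differed between arrays of 1 group. Replicate 1 read higher than replicate 2 in both groups for 11 of the 15 tested probe sets, against 29.0% of all tested probe sets. The median of replicate 1 minus replicate 2 over the members was 0.60 in MCK-PPARa and 0.94 in NTG muscle, against -0.065 and -0.081 over all tested probe sets. For Tnnc1 it was 1.22 in MCK-PPARa and 1.34 in NTG muscle, which is of the order of the genotype difference. The control probe set at the 5′ end of 18S ribosomal RNA moved with it, at 2313 and 44.7 in MCK-PPARa replicates 1 and 2 and 2202 and 28.9 in NTG replicates 1 and 2. The ratio of the 3′ to the 5′ Gapdh control probe set, a measure of RNA integrity, was 0.88 and 0.72 in MCK-PPARa and 0.96 and 0.87 in NTG muscle. The same ratio for beta-actin was 0.88 and 0.81 in MCK-PPARa and 0.79 and 0.85 in NTG muscle, so it did not follow the replicate number in the NTG arrays. The part of these in the members' values was not tested.

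The fast partners of the members are the isoforms that fast fibres use in the same place, and each was compared with its member on the same array, brightest probe set of each. The partners were among the brightest probe sets of the array, between 75690 and 229748, and saturation of their signals was not tested. Over the 9 pairs, the fast partners differed by between -0.20 and 0.24, and the log2 ratio of member to partner was lower in MCK-PPARa muscle in 8. The change in this ratio was -2.85 for Myh7 over the fast heavy chain Myh4, -2.03 for Tnnc1 over Tnnc2, -2.00 for Actc1 over skeletal alpha-actin Acta1, -1.97 for Tnni1 over Tnni2 and -1.27 for Tnnt1 over Tnnt3. It was -0.55 for Myl3 over Myl1, -0.52 for Myl2 over Mylpf, -0.034 for Tpm3 over Tpm1 and 0.019 for Myoz2 over Myoz1. In 7 pairs both MCK-PPARa ratios lay below both NTG ratios. The share of such ratios among other probe sets was not computed. With partners this close between the groups, the ratios largely repeat the members' own differences. Each of the 7 gave p = 0.333 in an exact two-sided permutation test, the smallest p that 2 arrays against 2 allow. This exact test therefore cannot pass a threshold of 0.05 for any of the 9 pairs. With 1449996_a_at or 1449997_at in place of the brightest Tpm3 probe set, a choice made after seeing the data, the Tpm3 over Tpm1 ratio changed by -3.03 or -3.37.

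**Figure D4:**
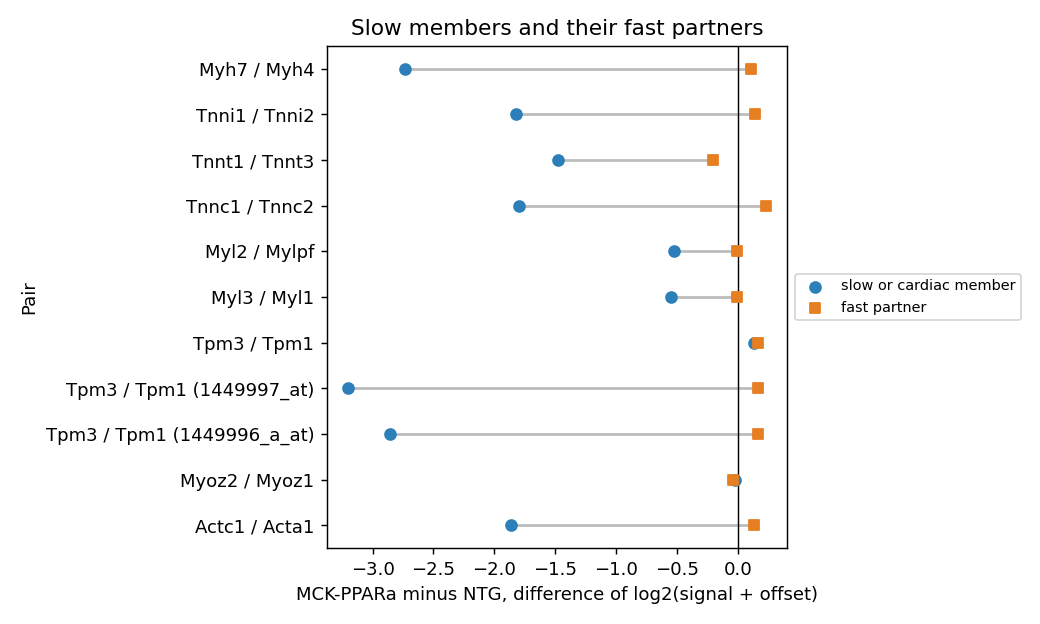
Difference between MCK-PPARa and NTG in log2(signal + offset) for each member (blue circle) and its fast partner (orange square), joined by a line, with Tpm3 also shown through its 2 other probe sets. The squares stay between -0.20 and 0.24, while the circles of Myh7, the troponins and Actc1 reach from -1.48 to -2.74.

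Of 13 fast sarcomere genes listed, 12 were on the array, and 0 of their 18 tested probe sets passed limma's test in either direction, at adjusted or unadjusted p under 0.05. Their median difference was -0.004. Both MCK-PPARa arrays read below both NTG arrays for 3 of the 18, against 14.8% of all tested probe sets. They read above both for 2, against 19.0%. The smallest p belonged to the dimmest Tnni2 probe set, 1438608_at (-1.21 ± 0.55, limma adjusted p = 0.89). The bright Tnni2 probe set 1416889_at gave 0.15 ± 0.32. Another bright Tnni2 probe set, 1438609_x_at, read 46153 and 41568 in MCK-PPARa muscle against 51731 and 88785 in NTG muscle, with groups that did not overlap (-0.63 ± 0.36). Next came the dimmer Myoz1 probe set (-0.61 ± 0.31) and the dimmest Tpm1 probe set (-0.72 ± 0.37), both with groups that did not overlap, and Tnnc2 (0.24 ± 0.32). A Myh1 probe set under the filter, 1452465_at, read 115 and 116 in MCK-PPARa muscle against 373 and 588 in NTG muscle. Its difference was -1.57 ± 0.55 in a fit without the filter (limma unadjusted p = 0.019, adjusted p = 0.73). The brighter Myh1 probe sets gave -0.21 ± 0.33 and 0.084 ± 0.33.

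Other slow and cardiac contractile or calcium-handling genes were mostly close between the groups. Of 19 tested probe sets from 12 genes, 1 rose, 0 fell and the median was -0.16. The riser was sarcolipin (Sln), a short membrane peptide that slows calcium uptake by SERCA pumps and is abundant in atrium. Its probe set 1420884_at read 8646 and 5020 in MCK-PPARa muscle against 26.3 and 45.5 in NTG muscle, the NTG signals lying below the offset (limma adjusted p = 0.0059). A dim Sln probe set under the filter, 1420883_at, went the other way. It read 115 and 108 in MCK-PPARa muscle against 192 and 184 in NTG muscle, a difference of -0.52 ± 0.50 in a fit without the filter. The slow calcium pump Atp2a2 gave -0.30 ± 0.38 in its brightest probe set, the cardiac and slow calsequestrin Casq2 0.57 ± 0.46, the stretch-responsive Ankrd2 -0.60 ± 0.30 and myoglobin (Mb) -0.020 ± 0.32. Tpm2, the beta-tropomyosin that is abundant in slow fibres, ran from -0.16 to -0.55 over 4 probe sets.

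Regulators of the slow fibre programme did not pass in limma's adjusted test either: 0 of 50 tested probe sets from 26 genes, with a median of -0.16. Of the 50, 15 lay above 0 and 35 below. Both MCK-PPARa arrays read above both NTG arrays for 3 of the 50, against 19.0% of all tested probe sets. They read below both for 11, against 14.8%. At an unadjusted p under 0.05, 1 of the 50 was higher, against 2.98% of all tested probe sets, and 1 was lower, against 2.68%. The higher one was Tead1, a TEAD factor that binds M-CAT letters, with 969 and 1261 in MCK-PPARa muscle and 490 and 404 in NTG muscle (1.20 ± 0.40, limma adjusted p = 0.63). The lower one was a probe set of the calcium-dependent kinase Camk2d (-1.18 ± 0.48), whose brighter probe set gave -0.48 ± 0.33. The calcineurin-regulated factor Nfatc4 gave 0.90 ± 0.43 and the calcineurin subunit Ppp3ca 0.71 ± 0.34, each in the probe set with its smallest p. The 2 other Ppp3ca probe sets lay below 0. Another tested Nfatc4 probe set gave 0.63 ± 0.76, and those under the filter gave -0.11 ± 0.60 and -0.041 ± 0.60 in a fit without it. Ppargc1a gave -1.22 ± 0.59 and -1.36 ± 0.66 in its 2 dimmest probe sets, with groups that did not overlap. Its brighter probe sets ran from -0.44 ± 0.41 to -0.043 ± 0.31.

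**Figure D5:**
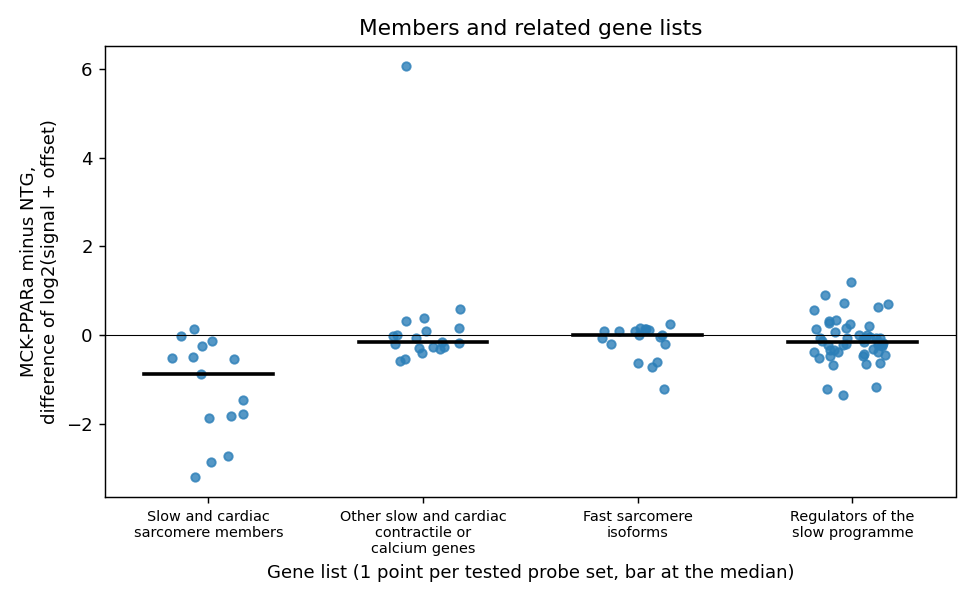
Difference between MCK-PPARa and NTG in log2(signal + offset) of each tested probe set (points) in the members and 3 related lists, with a bar at the median. The member median lies at -0.89 and the other 3 between -0.16 and -0.004, and the point above 6 is Sln.

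The probe sets whose centred log2 values over the 4 arrays were nearest to those of Myh7, by root-mean-square difference among 12438 candidates, were those of the potassium channel gene Kcnc4 (0.21), Rnf157 (0.35), carbonic anhydrase Car14 (0.48), Tnfaip2 (0.48) and a probe set of Atf4 (0.53). On the same measure 1449996_a_at and 1449997_at of Tpm3 stood at 0.26 and 0.30, with 1 candidate nearer than either, and Tnnc1 at 0.49 with 4 nearer. Tnni1 stood at 0.61 with 14 nearer, and Myoz2 at 1.39 with 3413 nearer. These are descriptions over 4 arrays of 2 genotypes.

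The defining markers of the labelled tissue were bright: the 6 skeletal muscle markers, Ckm and Actn3 among them, read between 86533 and 233214 on every array. Markers particular to heart muscle (Myh6, Nppa, Nppb, Tnni3, Tnnt2 and Myl7) were all under the filter, at most 670.4, and summed to 2089 and 1500 in MCK-PPARa and 1479 and 1691 in NTG muscle. Of the adipocyte list, 5 of 5 tested probe sets, from 3 genes, were higher at an unadjusted p under 0.05 (0 passed the adjusted test). The counts for the lists that follow are at the same unadjusted threshold. Of all tested probe sets, 2.98% were higher and 2.68% lower at it. The summed signal of the adipocyte list was 27391 and 16805 in MCK-PPARa and 6607 and 6782 in NTG muscle, and leptin (Lep) read at most 125. The Fabp4 probe set 1417023_a_at alone made 21784 and 10839 of that sum in MCK-PPARa and 4186 and 3821 in NTG muscle. Of markers of denervated or regenerating fibres, 2 of 5 tested probe sets were higher at an unadjusted p under 0.05, Chrna1 (2.18 ± 0.38) and Ncam1 (1.31 ± 0.47). Myog gave 0.69 ± 0.31 and Myh8 -0.70 ± 0.51. The tested Runx1 probe set gave -1.09 ± 0.80, with 87.7 and 765 in MCK-PPARa and 595 and 802 in NTG muscle, so the groups overlapped. The Runx1 probe sets under the filter all lay above 0 in a fit without it, from 0.26 ± 0.48 to 1.03 ± 0.48. That list summed to 16951 and 17695 in MCK-PPARa and 5416 and 7328 in NTG muscle, of which Chrna1 alone made 12457 and 12678 in MCK-PPARa and 1965 and 3784 in NTG muscle. The embryonic heavy chain Myh3 read 689 and 217 in MCK-PPARa and 480 and 240 in NTG muscle. Of the tendon and cartilage list, 1 of 11 probe sets was lower, Thbs4 (-1.20 ± 0.30), and the list summed to 33873 and 24444 in MCK-PPARa and 33425 and 30674 in NTG muscle. Endothelial markers had 1 of 5 higher, Kdr (0.91 ± 0.33), and summed to 12152 and 12952 in MCK-PPARa and 8117 and 9337 in NTG muscle. Macrophage markers (0 of 6 in either direction) summed to 8878 and 10347 in MCK-PPARa and 7138 and 8053 in NTG muscle. Red blood cell markers (0 of 2) summed to 4432 and 3771 in MCK-PPARa and 3389 and 2921 in NTG muscle, and nerve markers (0 of 7) to 5463 and 6651 in MCK-PPARa and 6413 and 5069 in NTG muscle. The part of these cell types in the members' differences was not tested.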

How the data were processed

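The authors deposited linear signal intensity, 1 value per probe set and array, made with MAS5 per the submitters' processing notes. The sources used here give neither its version and settings nor its detection calls, so no probe set is called present or absent. The 2% trimmed means lay between 1500.6 and 1500.7 on the 4 arrays, so no further normalization was applied.

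Gene symbols came from the platform's annotation and were compared, through Entrez IDs, with RefSeq's gene table (0 changed): 20380 had 1 symbol, 691 several and 1555 none here, besides 64 controls. Values were transformed as log2(signal + 64.2), an offset of 10% of the median of all values, which understates the change of dim probe sets. Probe sets under the 40th percentile of mean signal (455) were not tested. MCK-PPARa was compared with NTG by limma 3.58.1 in R 4.3.3 (lmFit, then eBayes with a trend in the variance), a two-sided test with 8.19 degrees of freedom, 2 of them from the arrays. In 10 simulated runs over 13576 probe sets, with 200 changed, it recovered 10.0% of those changed by 1 on the log2 scale, 72.6% by 2, 85.8% by 3 and 91.4% by 4, with 8.94% false calls, above the nominal rate. The runs drew each array independently from limma's fitted spread, while same-numbered arrays in the data deviated together. These rates may therefore not hold for the members.

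The members and gene lists were chosen with earlier results of these data known. The rule for named genes took Ppara, all member probe sets and the fast partners. It also took up to 4 genes of each related list by smallest p, and the 5 probe sets nearest to Myh7. Sln, Atp2a2, Mb, Tpm2, Myh1, Ppargc1a and marker genes beyond this rule, and second probe sets, were named after their values were seen. Alternatives were other offsets, filters, normalizations and variance models, 1 probe set per gene, the replicate number as a block and each array left out.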

Additional observations from a re-analysis of the deposited data

How the results depend on the processing

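With 2 arrays per group the number of arrays limits precision, and signal over background is unknown without detection calls. The counts over all probe sets changed with several settings. Against 5 higher and 2 lower, there were 2 higher with a filter at the 60th percentile, 2 higher and 1 lower after quantile normalization, 1 and 0 after median centring, 2 and 0 without a variance trend, and 1 lower with 1 probe set per gene. Median centring moved the median of all tested probe sets from 0.034 to -0.068, and the members with it. Leaving out 1 array gave between 44 and 92 higher and between 22 and 145 lower, and between 2 and 5 member probe sets past the threshold against 0 with all arrays. Myh7 was among them each time.

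Both groups number their arrays 1 and 2, with no label on the meaning of the number. Same-numbered arrays deviated together from their group means (r = 0.46 across probe sets, which are not independent). With the replicate block, 169 probe sets were higher and 137 lower, and 7 member probe sets passed, all lower: Myh7, Tnni1, Tnnt1, Tnnc1, Actc1, and 1449996_a_at and 1449997_at of Tpm3. These are the same 7 that had an unadjusted p under 0.05 without it.

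Signs turned for members near 0. After quantile normalization Myoz2 gave 0.030 and Tpm3 over Tpm1 0.16. Leaving out single arrays, Myoz2 ran from -0.37 to 0.33, Myl3 1428266_at from -0.82 to 0.56, Tpm3 1427260_a_at from -0.88 to 1.15, Tpm3 over Tpm1 from -0.92 to 0.86 and Myoz2 over Myoz1 from -0.15 to 0.19. No other member probe set or pair changed sign under any setting run. For Myh7 the difference lay between -2.84 and -2.51 over the settings with all arrays and no block (adjusted p from 0.13 to 0.31). The cause of these changes was not tested.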
